A study of Drosophila melanogaster with 2 samples.

Results

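The 10 heat shock and chaperone genes Hsp22, Hsp23, Hsp26, Hsp27, Hsp67Ba, Hsp67Bc, Hsp68, Hsc70-4, Hsp83 and Hsp60A were chosen by name, out of 13968 protein-coding genes, with their peaks in these same lists already known. A gene was given a peak when the summit lay within 1 kb of one of its transcription start sites (TSS) or inside the gene. The values that chose the genes were the authors' signal per peak and the rank of that signal in each list. All values of the 10 genes are therefore descriptions, and none carries a test. The assay was chromatin immunoprecipitation followed by sequencing (ChIP-seq) of the GATA family transcription factor GATAd in Drosophila melanogaster. The 1 group was the strain GATAd-GFP, whose transgene adds green fluorescent protein to the C terminus of GATAd, collected as whole wandering larvae of the third instar with both sexes pooled. The group had 2 biological replicates, numbered 2 and 3, with 1 library each; no heat treatment or other agent is named, and the age is given as unknown. Sonicated chromatin was pulled down with an anti-GFP antibody per the description, although the antibody field of the labels reads GATAd. The labels do not name the promoter of the transgene, and no wild-type or untagged larvae were analysed here. In whole larvae, binding in more cells and stronger binding per cell cannot be told apart.

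Heat shock proteins are molecular chaperones, which keep other proteins folded or return them to their folded state. The small heat shock proteins hold unfolding proteins without using ATP, the HSP70 and HSP90 families and the HSP60 chaperonins work through cycles of ATP hydrolysis, and several of these genes are also active without heat. In flies the small heat shock genes of polytene region 67B are known for their induction by ecdysone late in larval life, besides their induction by heat shock factor (Hsf) at heat shock elements.

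The sequences printed next are those on which the account turns, read from the RefSeq copy of the Release 6 genome (dm6), 5′ to 3′ on the plus strand unless said otherwise. Capitals mark matches to the words searched: the GATA-factor word (AGATAA and AGATAG, or with T in place of the leading A), its core GATA alone, a pair of heat shock units (GAANNTTC or TTCNNGAA), GAGAG (bound by GAGA factor), TATCGATA (the DNA replication-related element) and TATAAA. Each word was searched on both strands. The core lies inside both the full GATA-factor word and TATCGATA, and neighbouring heat shock pairs can share a unit. The first sequence is the whole Hsp27 peak. The second is the central 201 bases of the Hsp83 peak, and those 201 bases held none of these words. Both genes were in the authors' final list. The Hsc70-4 and Hsp60A windows show candidate sites upstream of genes outside that list, the Hsp26 window shows the member site with the most words, and the Hsp68 window is a promoter rich in heat shock units without a candidate. In the Hsp68 sequence, which is read on the minus strand and covers the 200 bases before the TSS, capitals mark heat shock units in pairs.
Hsp27, chr3L:9383813-9383986: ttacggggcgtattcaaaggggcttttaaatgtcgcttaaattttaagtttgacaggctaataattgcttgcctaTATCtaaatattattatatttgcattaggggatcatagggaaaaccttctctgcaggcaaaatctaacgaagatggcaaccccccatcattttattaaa
Hsp83, chr3L:3194218-3194418: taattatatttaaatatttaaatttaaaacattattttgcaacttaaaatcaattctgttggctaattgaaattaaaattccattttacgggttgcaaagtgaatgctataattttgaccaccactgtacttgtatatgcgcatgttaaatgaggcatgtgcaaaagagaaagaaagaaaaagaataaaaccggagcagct
Hsc70-4, chr3R:15242459-15242609: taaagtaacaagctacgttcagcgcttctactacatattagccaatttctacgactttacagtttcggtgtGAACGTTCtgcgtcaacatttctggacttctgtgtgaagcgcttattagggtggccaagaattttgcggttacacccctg
Hsp60A, chrX:11108175-11108325: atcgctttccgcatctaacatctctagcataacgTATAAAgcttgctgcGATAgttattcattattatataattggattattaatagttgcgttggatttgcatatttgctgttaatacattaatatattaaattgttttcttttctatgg
Hsp26, chr3L:9377433-9377583: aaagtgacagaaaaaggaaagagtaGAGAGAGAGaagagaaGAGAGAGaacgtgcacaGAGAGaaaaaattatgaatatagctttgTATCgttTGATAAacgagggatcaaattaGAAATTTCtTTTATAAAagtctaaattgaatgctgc
Hsp68, chr3R:24057311-24057510, minus strand: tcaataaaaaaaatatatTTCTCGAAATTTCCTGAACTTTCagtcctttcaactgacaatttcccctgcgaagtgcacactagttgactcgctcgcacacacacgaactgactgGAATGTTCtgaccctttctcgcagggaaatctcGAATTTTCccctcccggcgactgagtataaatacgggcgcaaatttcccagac

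The authors deposited 4 peak lists on dm6. The final list, of peaks that passed a threshold on the irreproducible discovery rate (IDR, which scores how well replicates rank a peak alike), held 1205 peaks with signals from 43.9 to 547 and a median of 65.2. The lists of the pooled replicates, of replicate 2 and of replicate 3 held 30000 candidates each, background included by design, with median signals of 17.2, 12.3 and 8.77. The IDR peaks were the 1205 strongest pooled candidates, so an IDR peak by itself does not show that the replicates were alike there. The signal is the authors' enrichment value, its scale is not stated, and the read depth is unknown, so ranks are printed beside it. The replicate lists were called against the same control, and with 1 value per replicate no standard deviation is given for a peak.

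Hsp27 and Hsp83 were the 2 of the 10 genes with an IDR peak, where 10.2% of all protein-coding genes had one. Among genes no longer than 4091 bp, the length of the longest of the 10, the background was 7.42%. The pooled list held a candidate at 4 of the 10 genes (all genes, 56.5%), and the list of replicate 2 at 3 (all genes, 56.7%). The list of replicate 3 held one at 8 (all genes, 64.2%). Among genes no longer than 4091 bp the shares were 45% for replicate 2 and 53.5% for replicate 3, and none was taken for the pool. The share of the 10 genes was thus below the background in the pool and in replicate 2, and above it in replicate 3 and in the IDR list. With 10 genes, each count lies within a few genes of its background share, so no pattern is read from them.

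**Figure D1:**
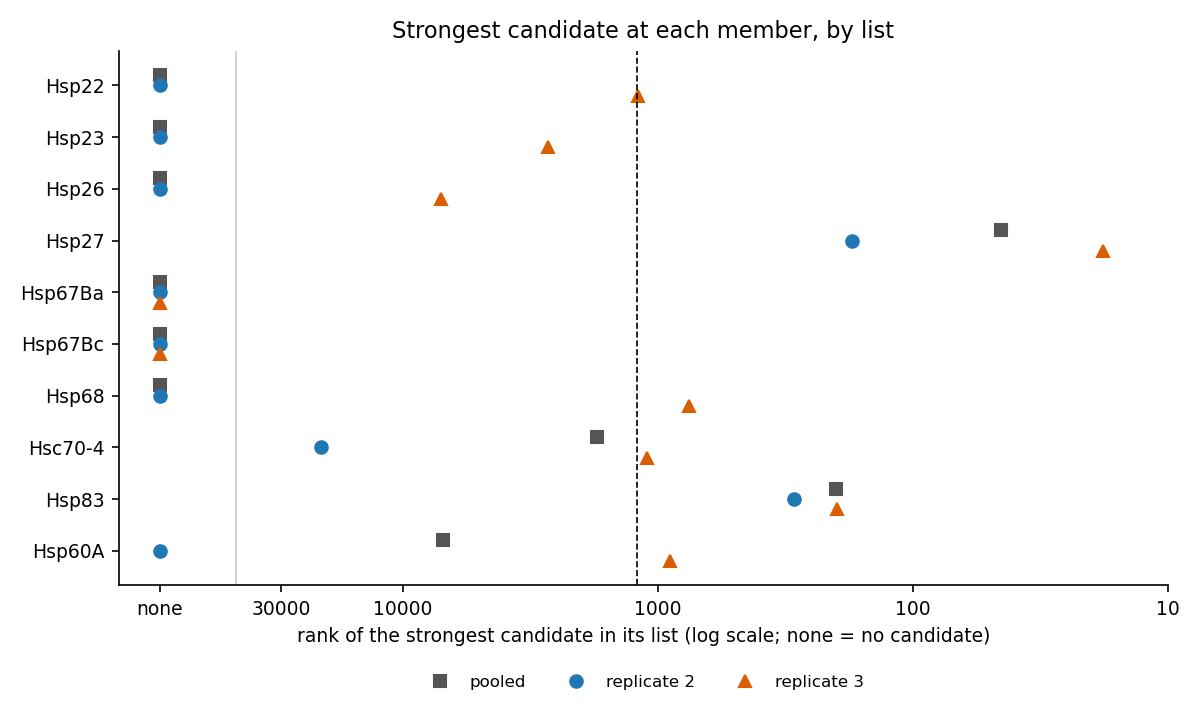
Rank of the strongest candidate at each of the 10 genes in the pooled, replicate 2 and replicate 3 lists (log axis, rank 1 is the strongest; points at the edge marked none had no candidate; the dashed line is rank 1205, the length of the IDR list). Hsp27 and Hsp83 lie inside the line in every list, and Hsc70-4, Hsp60A, Hsp68 and Hsp22 lie inside it in replicate 3 only.

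Among the small heat shock genes, Hsp27, a small chaperone found in the nucleus, had the strongest site. Its gene lies on 3L from 9384063 to 9385694 on the plus strand, and the IDR peak covered 9383813 to 9383986, in intergenic sequence with its summit 173 bp upstream of the TSS. The pooled signal was 189, rank 45 of 1205. The signal was 61.6 in replicate 2, at rank 174 and 158 bp upstream, and 128 in replicate 3, at rank 18 and 150 bp upstream. Both libraries thus held a strong candidate at the same promoter side, and replicate 3 ranked it higher. A further candidate inside the Hsp27 coding exon, with a summit 577 bp downstream of the TSS in replicate 2, had a signal of 16.9 and rank 4637 there. In the pooled list that site had a signal of 15.6 and rank 20155, and replicate 3 had no candidate at it.

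The log2 ratio of replicate 3 to replicate 2 at the Hsp27 peak was 1.05. Over the 1168 IDR peaks with a candidate in both replicates the median was -0.20 with an SD across peaks of 0.75, so Hsp27 stood 1.25 above the median. Its ratio was higher than at 94.5% of those peaks. Genes with the most similar pair of replicate values were CG13390 and CG17294, which share 1 peak of signal 58.7 in replicate 2 and 112 in replicate 3, at a distance of 0.20 in the plane of log2 signals. That likeness was taken over 2 libraries and 1175 genes.

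The other small heat shock genes had candidates in replicate 3 alone or in no list. Hsp22, the small chaperone of mitochondria, lies on 3L from 9372931 to 9374964. It had a replicate 3 candidate of signal 24.7 and rank 1193, with a summit 427 bp upstream of its nearest TSS, inside the 5′ UTR of a longer Hsp22 transcript that overlaps CG4456. Hsp23, a cytosolic small chaperone at 9381882 to 9382765, had a replicate 3 candidate of signal 16.7 and rank 2702, 590 bp downstream of the TSS in the coding exon. Hsp26, another cytosolic member at 9376418 to 9377427 on the minus strand, had a replicate 3 candidate of signal 11.5 and rank 7119, 81 bp upstream of a TSS. None of these sites was listed in replicate 2 or in the pool. Hsp67Ba, at 9377802 to 9379534, and Hsp67Bc, which works with the co-chaperone Starvin and lies at 9371511 to 9372497, had no candidate in any of the 4 lists. A weaker rank in replicate 3 carries less: 65.3% of all genes had a weaker candidate than Hsp26 or none in that list, against 89.4% for Hsp22 and 99.8% for Hsp27.

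These 6 small heat shock genes lie in the cluster on 3L, which also holds CG4456 and CG4461, listed here as small heat shock genes too. Across 24184 bp from 9366511 to 9390694, which includes 5 kb on either side of the outermost of the 6, the pooled list held 2 sites and the replicate 2 list held 2, all at Hsp27. The replicate 3 list held 7 sites, where an even spread over the genome would give 5.42 candidates from a list of that length. The IDR list held 1, against 0.218 from an even spread. Within the outer ends of the 6 genes the counts were 1 in the IDR list, 2 in the pool, 2 in replicate 2 and 5 in replicate 3, with 3.18 from an even spread of candidates. Besides Hsp22, Hsp26, Hsp23 and Hsp27, the replicate 3 sites were at CG4452 (signal 27.1, rank 1008), Fdx1 (9.92, rank 10760) and CG4461, a further small heat shock gene (9.84, rank 10995). The CG4452 site outside the 6 genes was thus stronger in replicate 3 than each site within them apart from Hsp27. The nearest IDR summit to a TSS was the Hsp27 peak for all 6 genes, at 2008 bp for Hsp23, 4356 bp for Hsp67Ba, 6463 bp for Hsp26, 9893 bp for Hsp22 and 11393 bp for Hsp67Bc. The sites of neighbouring genes lie on one stretch of chromatin and are not independent of each other.

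**Figure D2:**
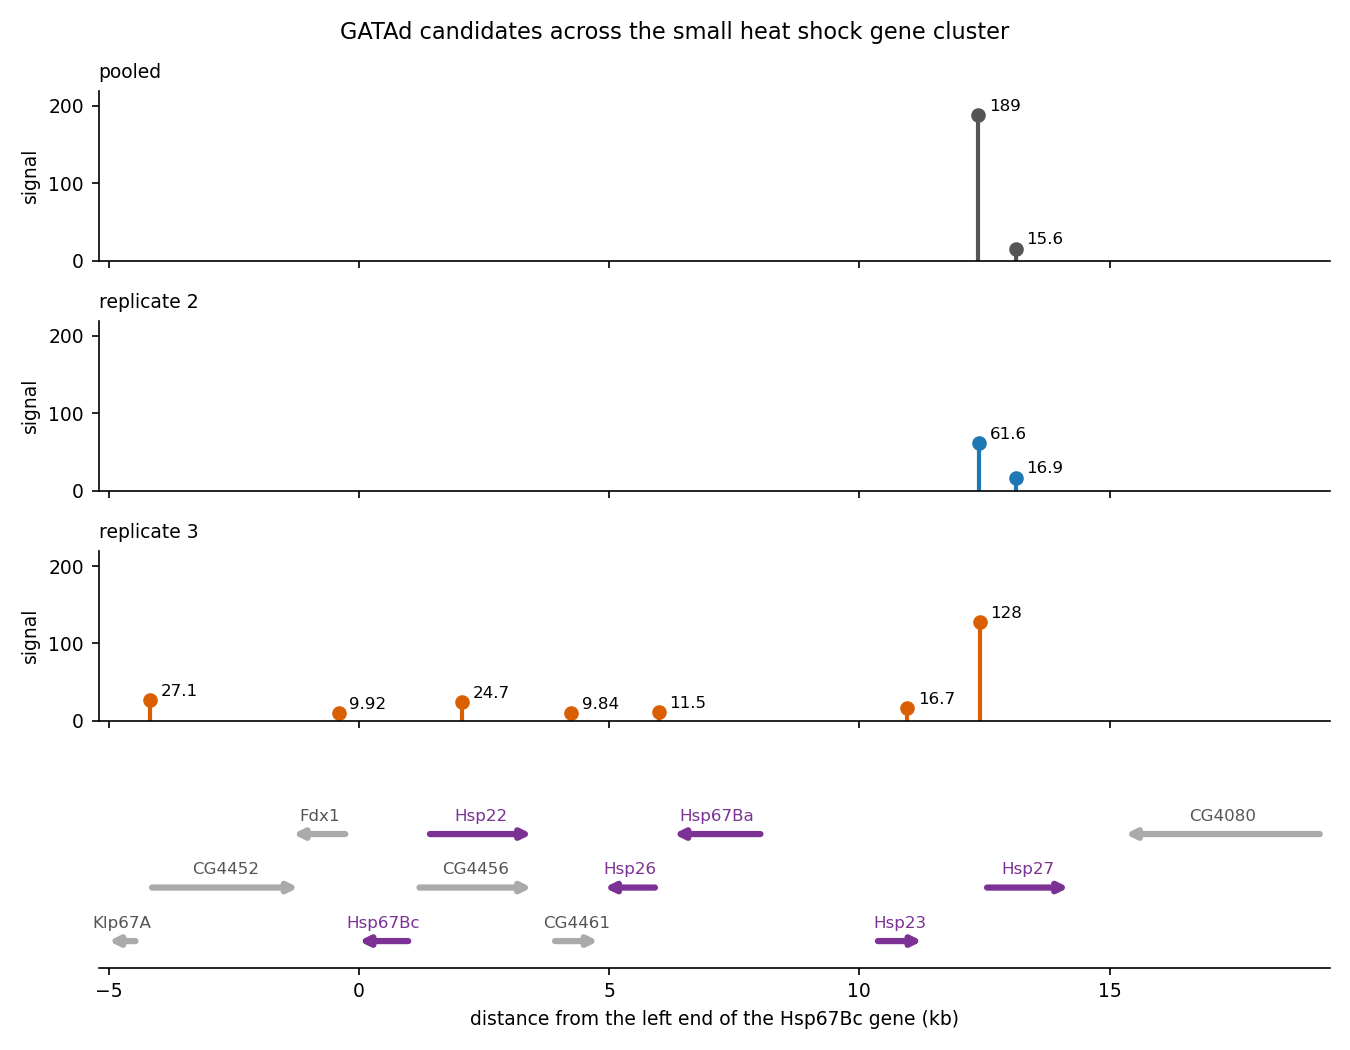
Candidates across the small heat shock gene cluster on 3L in the pooled, replicate 2 and replicate 3 lists. Stems give the authors' signal at each summit (linear axis from 0). The horizontal axis is the distance in kb from the left end of Hsp67Bc. Arrows are genes with their direction (purple, the 6 small heat shock genes among the 10). CG4456 and CG4461, not in purple, are also listed as small heat shock genes. The site before Hsp27 stands out in every list with 189, 61.6 and 128, and replicate 3 has 6 further sites between 9.84 and 27.1.

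The HSP70 family members differed between the replicates. Hsc70-4, the main cytosolic HSP70 made without stress, lies on 3R from 15242687 to 15246614 and had a candidate upstream of its TSS in all 3 candidate lists. The signal was 36.1 in the pool, at rank 1728 and 153 bp upstream, 11.0 in replicate 2 at rank 20973, and 25.7 in replicate 3 at rank 1105. Replicate 3 thus placed it among its strongest peaks, and replicate 2 placed it deep in its background. The log2 ratio was 1.23, which is 1.42 above the median of IDR peaks and higher than at 96.6% of them, although the site is not itself an IDR peak. Of the 10 genes, Hsp83 with 103 was the weakest inside the IDR list and Hsc70-4 with 36.1 the strongest outside it, and the weakest peak of that list had 43.9. Its nearest IDR summit lay 13150 bp away and had a signal of 331.

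Hsp68, a heat-inducible HSP70, lies on 3R from 24055080 to 24057310 on the minus strand. Its only candidate was in replicate 3, with signal 30.7 and rank 758, 961 bp upstream of the Hsp68 TSS. That summit lay 16 bp from a TSS of SMC1, a cohesin subunit gene, so the distance rule gives the site to Hsp68 while a nearer start site belongs to SMC1. No list held a summit in the 200 bases before the Hsp68 TSS printed above.

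Hsp83, the fly HSP90, which helps kinases and steroid receptors mature, lies on 3L from 3192969 to 3197059. Its IDR peak was not at the promoter: it covered 3194126 to 3194509, in the first intron, with a summit 1102 bp downstream of the TSS. The pooled signal was 103, rank 200. The signal was 48.6 in replicate 2 at rank 292 and 52.9 in replicate 3 at rank 198, with summits 1110 and 1076 bp downstream. The replicates were close there: the log2 ratio was 0.12, which is 0.32 above the median of IDR peaks and above 67.5% of them. The genes with the most similar pair of values were scramb2 and Sk2, which share 1 peak (46.4 in replicate 2, 52.3 in replicate 3, distance 0.07).

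A weaker site lay at the Hsp83 promoter. Its signal was 29.2 in the pool at rank 2707, with the summit 89 bp upstream of the nearest TSS and in the 5′ UTR of the transcript that starts further upstream. It was 19.8 in replicate 2 at rank 2495. The overlapping candidate of replicate 3 had 15.0 at rank 3477, but its summit lay in intergenic sequence, 152 bp upstream of the other TSS. The intron site was the stronger of the Hsp83 sites in each list. The log2 ratio at the promoter site was -0.40, or -0.21 against the median of IDR peaks. That ratio pairs candidates by overlap alone, with summits at different start sites, so it may compare different sites. Replicate 3 also held a candidate of signal 6.80 and rank 26759 in the coding exon, 2636 bp downstream.

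Hsp60A, the chaperonin of the mitochondrial matrix, lies on X from 11108482 to 11112308. Its site had a signal of 21.6 in the pool, at rank 6961 and 311 bp upstream, and 28.4 in replicate 3, at rank 900 and 232 bp upstream. Replicate 2 had no candidate within 1 kb of a TSS or in the gene. A second replicate 3 candidate in an intron had a signal of 6.67 and rank 27887. The nearest IDR summit was 229997 bp from its TSS.

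**Figure D3:**
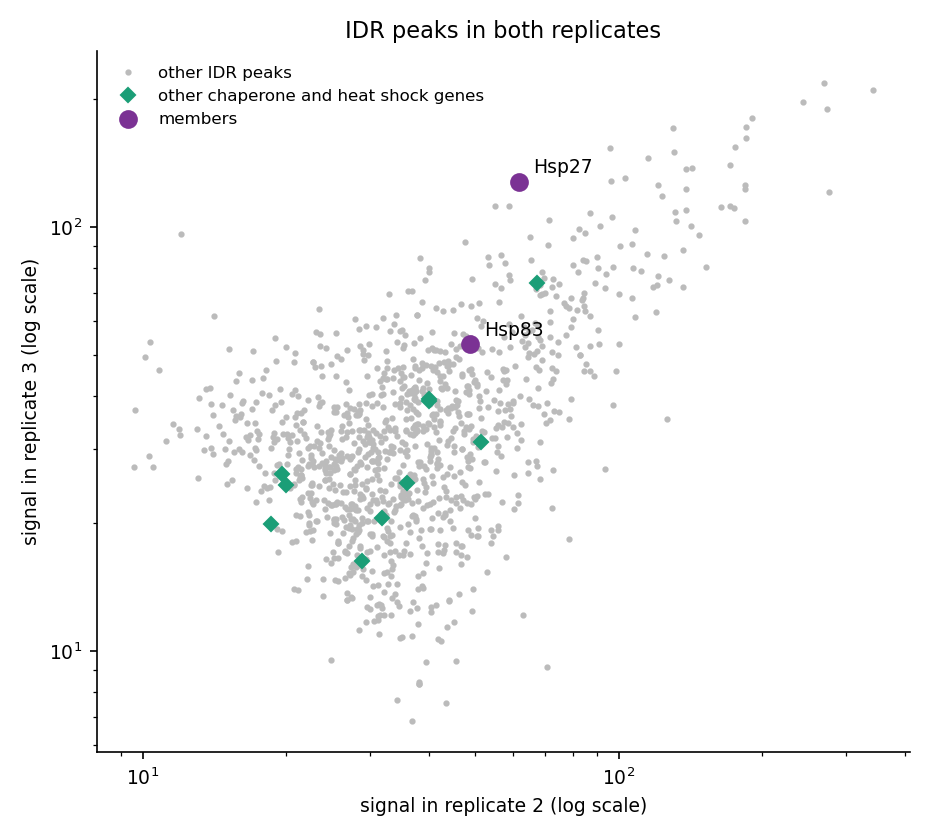
Signal of the 1168 IDR peaks in replicate 2 (horizontal) and replicate 3 (vertical), both on log axes, with the peaks of Hsp27 and Hsp83 (purple circles) and of other chaperone and heat shock genes, the regulator Trl included (green diamonds), marked. Hsp83 (48.6 and 52.9) lies within the cloud, while Hsp27 (61.6 and 128) lies towards its replicate 3 side.

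Put side by side, and counted by gene as candidate or none, the replicate lists differed at these genes in 1 direction. Single sites also went the other way, as with the Hsp27 coding-exon candidate, which replicate 3 lacked. A candidate in replicate 3 with none in replicate 2 was found at 5 of the 10 genes, Hsp22, Hsp23, Hsp26, Hsp68 and Hsp60A, where 20.1% of all genes had that pattern. The opposite pattern was found at 0 of the 10, against 12.7% of all genes. Among genes no longer than 4091 bp, replicate 3 had a candidate at 53.5%, replicate 2 at 45%, and replicate 3 without replicate 2 at 24.2%. Among the 1205 strongest peaks of replicate 3, a peak was found at 6 of the 10 genes (Hsp27, Hsp83, Hsp68, Hsp60A, Hsc70-4 and Hsp22), where the share of all genes was 10.7%. Of these sites, that of Hsp68 lay 16 bp from a TSS of SMC1. That of Hsp22, at rank 1193, was just inside the cut and is also the site of CG4456. Among the 1205 strongest of replicate 2 a peak was found at 2 genes, Hsp27 and Hsp83, with 9.66% of all genes. These 10 genes were chosen with such values in view, so the counts describe them and support nothing about chaperone genes at large.

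The same counts were taken over 59 other chaperone and heat shock genes, from a list of 85 symbols compiled by function, of which 9 matched no gene and several were second names of a listed gene. The 59 include the regulator genes Hsf and Trl, which do not encode chaperones. An IDR peak lay at 10 of the 59 (16.9%), pooled candidates at 27 (45.8%), replicate 2 candidates at 27 (45.8%) and replicate 3 candidates at 36 (61.0%). The shares over all genes were 10.2%, 56.5%, 56.7% and 64.2%. A replicate 3 candidate without one in replicate 2 was found at 15 (25.4%, all genes 20.1%), and the reverse at 6 (10.2%, all genes 12.7%). Among the 46 of the 59 no longer than 4091 bp, the first pattern was found at 11 (23.9%), near the 24.2% of all genes of that length. An IDR peak lay at 6 of the 46 (13.0%), against 7.42% of all such genes. The 1205 strongest peaks reached 8 of the 59 in replicate 2 (13.6%, all genes 9.66%) and 9 in replicate 3 (15.3%, all genes 10.7%). The lean towards replicate 3 among the strongest peaks was thus 6 against 2 in the chosen genes and 9 against 8 in the wider list. The peak shared by Hsp22 and CG4456 is counted in both of these replicate 3 numbers.

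**Figure D4:**
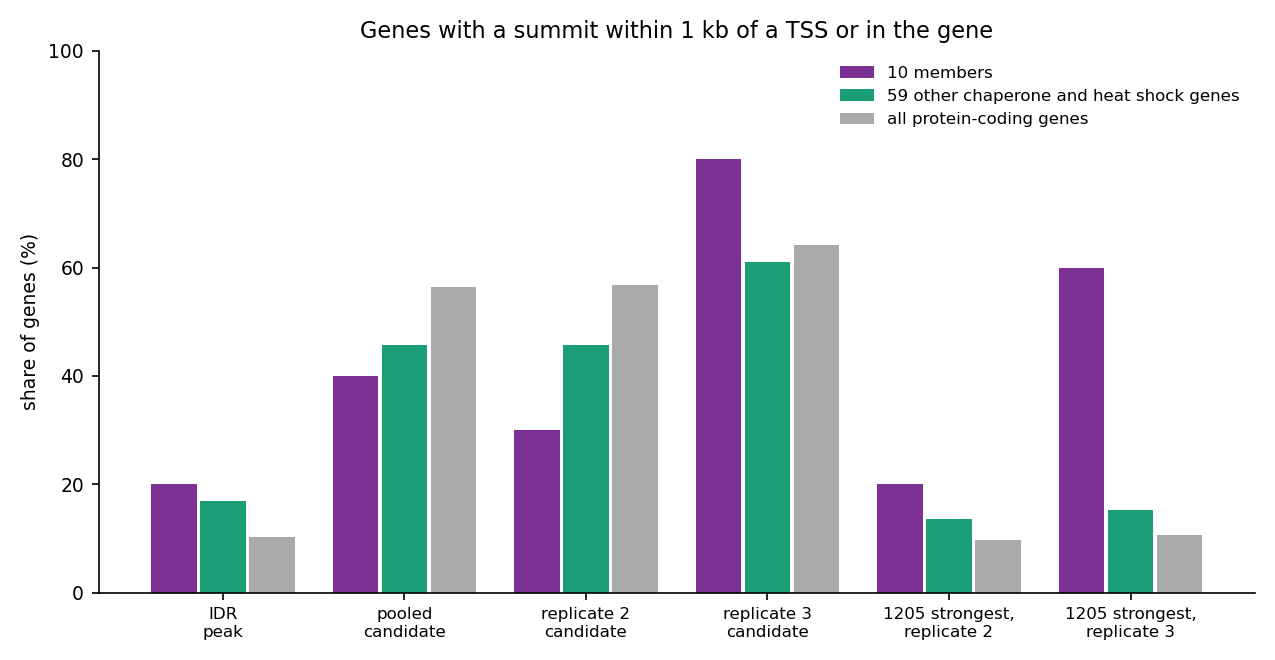
Share of genes (%, axis from 0 to 100) with a summit within 1 kb of a TSS or in the gene under each call rule, for the 10 heat shock and chaperone genes, the 59 other chaperone and heat shock genes and all 13968 protein-coding genes. The 10 genes differ most from the others in the 1205 strongest peaks of replicate 3, with 6 of 10 against 15.3% of the 59 and 10.7% of all genes. The 6 include the Hsp68 site next to a TSS of SMC1 and the Hsp22 site shared with CG4456.

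Of the 10 other chaperone and heat shock genes with IDR peaks, 2 were of the HSP70 family and 4 were J-domain genes. Trl, listed as a regulator and not a chaperone, encodes the GAGA factor that keeps heat shock promoters open. Trl had the strongest of these peaks, at signal 137 and rank 109 (67.3 in replicate 2, 73.7 in replicate 3), and another at 47.2 and rank 1063. Hsc70-5, the mitochondrial HSP70, and CG8531, a J-domain gene, shared a peak of 90.5 at rank 285 (40.0 and 38.8). The J-domain gene mrj had peaks of 82.9 and 82.8 at ranks 353 and 354. The replicate signals were close to each other at Trl and at the shared peak, while the stronger mrj peak had 51.4 in replicate 2 and 31.2 in replicate 3.

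Weaker IDR peaks lay at CG1416 (59.1, rank 731; the summit is 533 bp from its TSS and 11 bp from one of step), at P58IPK, a J-domain protein of the endoplasmic reticulum (58.4, rank 744), and at Tpr2 (49.8, rank 973). Hsp110, a nucleotide exchange factor for HSP70, had 49.1 at rank 997 (19.6 in replicate 2, 26.1 in replicate 3). CG11267, which RefSeq also calls Hsp10 and which is the partner lid of HSP60, had 46.3 at rank 1104. That summit was 603 bp from its TSS and lay nearer to one of MICAL-like. The site had no replicate 2 candidate and a replicate 3 signal of 29.1 at rank 856. The prefoldin subunit gene mgr had 46.3 at rank 1105 (20.0 and 24.6). Relative to the median of IDR peaks, the log2 ratios of the sites matched in both replicates ran from -0.63 at Tpr2 to 0.61 at Hsp110, so the 1.25 of Hsp27 lay above all of them.

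Counts by family were small, and are given beside shares over all genes of 10.2% for IDR peaks, 56.5% for the pool, 56.7% for replicate 2 and 64.2% for replicate 3. Of the 13 other J-domain genes, 4 had an IDR peak, 9 a pooled candidate, 11 a replicate 2 candidate and 13 a replicate 3 candidate. Of the 8 TRiC chaperonin genes, 0 had an IDR peak, 4 a pooled, 4 a replicate 2 and 3 a replicate 3 candidate. Of the 6 further small heat shock genes, which include CG4456 and CG4461 in the cluster, 0 had an IDR peak. A pooled candidate lay at 3, a replicate 2 candidate at 2 and a replicate 3 candidate at 4. With so few genes, a count of 0 IDR peaks is near what the share over all genes gives. Hsf, which encodes heat shock factor, had no candidate in any list. The 6 heat-inducible Hsp70 copies (Hsp70Aa, Hsp70Ab, Hsp70Ba, Hsp70Bb, Hsp70Bbb and Hsp70Bc) also had 0. They are nearly identical to each other, and how reads matching several places were treated is not given in the sources used here, so their values are uncertain.

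The summits of the IDR peaks held few of the words. The Hsp27 peak had no full GATA-factor word within 100 bp of its summit, and 1 GAGAG lay near the edge of the window. The core word, read as TATC on the plus strand at 9383888 to 9383891, covered the pooled summit. The summits of replicates 2 and 3, at 9383905 and 9383913, lay past it. The Hsp83 summit had none of the words and no core within 100 bp. Within 200 bp, a core lay near the Hsp27 and the Hsp83 summit, as near 93.5% of IDR summits. Over the 1205 IDR summits, 41.2% had the full GATA-factor word within 100 bp, 79.7% its core and 25.2% GAGAG. A pair of heat shock units was near 8.80% of IDR summits, TATCGATA near 5.81% and TATAAA near 31.9%. A match is a stretch of letters, not evidence of binding, and no match says only that these letters are not in the window.

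Among the sites outside the IDR list, the full GATA-factor word was near the replicate 3 summits of Hsp22, Hsp23 and Hsp26. It was not found at the sites of Hsc70-4, Hsp60A and Hsp68. The word started 30 bp from the summit at Hsp22, 18 bp at Hsp26 and -97 bp at Hsp23, near the edge of the window. Among IDR summits 41.2% had this word, and no share was taken over candidates outside that list. Within 100 bp of its summit Hsp26 also had 2 pairs of heat shock units, 6 copies of GAGAG, some of them overlapping, and 2 of TATAAA. Of those pairs, 1 lies in the sequence printed above (GAAATTTC), and the other, at 9377417 to 9377424, lies just outside it. The pooled Hsc70-4 summit lay within a pair of heat shock units, GAACGTTC at 15242530 to 15242537. The summits of replicates 2 and 3, at 15242510 and 15242525, lay before that pair. Hsp60A had TATAAA and 3 cores, and the replicate 3 site given to Hsp68 had 7 cores and no other word. Base composition varied too: GC content over 201 bp was 36.3% at Hsp27, equal to the IDR median of 36.3%, 28.4% at Hsp83, and 57.7% at the coding-exon site of Hsp23.

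**Figure D5:**
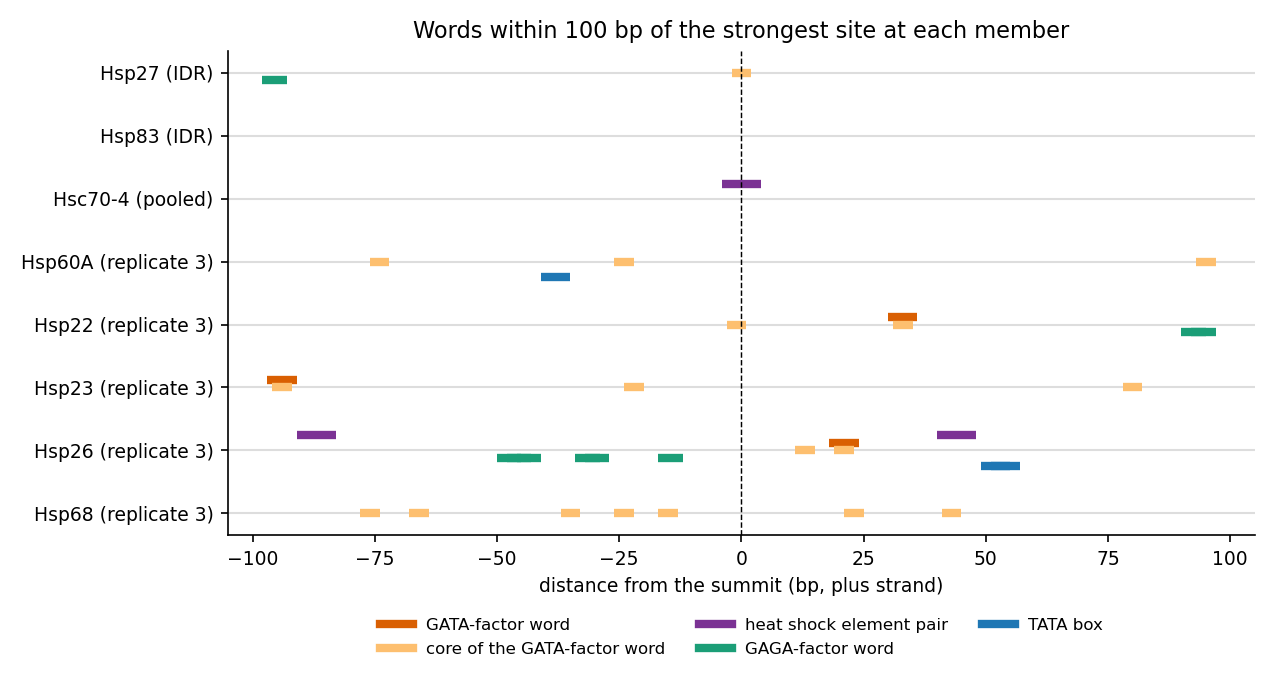
Positions of the searched words within 100 bp of the strongest site at each gene that had one, drawn along the plus strand with the summit at 0 bp (colours give the word; the list that supplied the site is in brackets). The Hsp27 core and the Hsc70-4 heat shock element pair cover the pooled summits of these genes, not those of the replicates. The Hsp83 line is empty, and the Hsp26 line holds the most kinds of word.

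A single promoter window was searched per gene, from 250 bases before to 50 after its outermost TSS. Other start sites were left out. For Hsp22 the window lay at 9372931, the start of the longer transcript, not at the TSS nearest its candidate. In these windows a pair of units was found at 5 of the 10 genes and at 15.9% of all 13968 promoters. Hsp68 had 6 pairs, Hsp26 had 3, Hsp23 had 2, and Hsp67Bc and Hsc70-4 had 1 each, while Hsp27 and Hsp83 had none in that window. Around the IDR summits of Hsp27 and Hsp83, a pair lay within 100 bp at 0 and within 200 bp at 2 of 2. Among all IDR summits the shares were 8.80% and 18.0%. The Hsp83 summit is in the intron, so its pair there says nothing about the promoter window. An arrangement of 3 alternating units was found at Hsp68, in 3 overlapping positions, and at 0.430% of all promoters. The full GATA-factor word was in 4 of the 10 promoters (46.7% of all), GAGAG in 3 (29.7%), TATAAA in 9 (45.8%) and TATCGATA in 1, that of Hsp83 (9.36%).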

How the data were processed

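ChIP-seq peak lists of 2 biological replicates were used as deposited by the authors. Per the file headers and records, the 4 dm6 lists hold the IDR peaks and the candidates of the pool, replicate 2 and replicate 3. The authors' signal is column 7, an enrichment over a shared control on a scale not stated. For the aligner, the peak caller and the IDR threshold, names and settings were not given in the sources used here, and depth is unknown. The dm3 lists were not used.

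Summits (column 2 plus column 10) were assigned to protein-coding genes of Ensembl release 115 (BDGP6, the dm6 assembly), within 1 kb of a TSS or in the gene. IDR peaks were matched to replicate candidates by overlap of at least 1 bp, nearest summit. Words were searched in the Release 6 sequence, and the GATA core was added after seeing the data. Python 3.11.15, NumPy 2.4.6, pandas 2.3.3 and matplotlib 3.10.9 were used, with the peak assignment and word search tested on simulated data. No significance test was run, so no p-value is given.

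The genes and lists were chosen with earlier results of these data known. Named genes are the 10 genes, up to 12 other chaperone and heat shock genes with an IDR peak, and the 2 nearest genes in the replicate plane. Genes named besides these (SMC1, step, MICAL-like, Su(z)12, Usp47, CG4452, CG4456, CG4461, Fdx1, Hsf, the Hsp70 copies) were chosen after their values were seen. Alternatives were other distances, overlaps, word windows and list lengths, and each replicate alone.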

Additional observations from a re-analysis of the deposited data

How the results depend on the processing

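Of the 10 genes, 2 had an IDR peak with the summit within 250 bp of a TSS or in the gene (Hsp83 through the gene body), with peak intervals in place of summits, and among the 602 strongest IDR peaks. The shares of all genes under these settings were 8.72%, 10.8% and 5.73%. The count was 4 at 5 kb, with Hsp23 and Hsp67Ba added through the Hsp27 peak (17.6% of all genes), and 1 (Hsp27; 8.77%) with the gene body left out. With the 1205 strongest peaks of 1 replicate it ran from 2 without replicate 3 (9.66% of all genes) to 6 without replicate 2 (10.7%). For the other chaperone and heat shock genes the count was 4 among the 602 strongest peaks (5.73% of all genes). It was 8 without replicate 3 (9.66%) and 9 without replicate 2 (10.7%). Sites across the cluster ran from 2 without replicate 3 to 7 without replicate 2. Within 200 bp of the Hsp27 and Hsp83 summits, the full GATA-factor word was found at 1 (60.7% of IDR summits) and its core at 2 (93.5%). Heat shock pairs were found at 2 (18.0%) and TATAAA at 1 (49.7%), and within 50 bp GAGAG was found at 0 (12.2%). The cause of these shifts was not tested. Replicate ratios kept their direction, at 1.22 to 1.25 for Hsp27 and 0.29 to 0.32 for Hsp83, also by ranks. No paired analysis was possible because there is 1 group. Read depth is unknown, which limits what an absent candidate shows.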

Other observations

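Among the 59 other chaperone and heat shock genes, 15 (25.4%, all genes 20.1%) had a candidate in replicate 3 and none in replicate 2. These were looked at after their values were seen. The strongest were at CG11267 (signal 29.1, rank 856), CG4456 (24.7, rank 1193, the site shared with Hsp22), the prefoldin gene Pfdn6 (24.1, rank 1250) and the co-chaperone gene stv, which encodes Starvin (21.7, rank 1522). Gp93, the HSP90 of the endoplasmic reticulum, had 18.7 at rank 2100, DnaJ-1, a heat-inducible J-domain gene, had 14.8 at rank 3615, and Hsc70-3, the HSP70 of the endoplasmic reticulum, had 13.0 at rank 4991. The Pfdn6 summit lay 128 bp from its TSS and 81 bp from one of Su(z)12. That of DnaJ-1 lay 400 bp from its TSS and 384 bp from one of Usp47. The weakest were CCT7 (6.45, rank 29679) and Pfdn4 (6.67, rank 27871), at the foot of the list. The ranks of these sites thus spanned nearly the whole replicate 3 list.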
